A study of Mus musculus with 8 samples.

Results

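The genes described here are 35 mouse genes of homologous recombination, the Fanconi pathway, mismatch repair and the replication-stress checkpoint, taken as a list of symbols and matched by Entrez identifier to the 27178 genes of the deposited tables. The list was chosen with earlier results of these data known. Shares of members set beside those of all genes, or of other lists, are therefore descriptions and no independent test. All 35 were found, and all 35 passed the filter on low counts in every comparison, so no member is missing from a count below. By role, 15 act in homologous recombination, 12 in the Fanconi pathway, 2 in mismatch repair and 6 in the checkpoint. The study deals with Lockd, a long noncoding RNA, and sequenced messenger RNA of mouse embryonic cortex in 2 experiments, with 4 groups of 2 libraries. In the first experiment, brains of wild-type ICR embryos were electroporated at embryonic day (E) 14.5 with plasmid at 3 µg/µl that either expressed a short hairpin RNA (shRNA) against Lockd or was a control, and cells positive for GFP were recovered by flow cytometry at E16.5. The second experiment took whole E13.5 cortices of untreated C57BL/6 embryos, either PlyA-KI or wild type (WT), in pools. The labels give no description of the PlyA-KI allele and do not state the number of embryos behind a library or whether libraries came from separate litters, so p-values measure the spread between these libraries, part of which may be technical. Electroporation reaches a subset of cells along the ventricle, so the first experiment reports on the sorted descendants of those cells and the second on all cells of the tissue.

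Homologous recombination repairs broken DNA and collapsed replication forks by copying the sister chromatid: ends are trimmed, BRCA2 and its partners prepare them for strand invasion, and helicases and translocases process the joined molecules. The Fanconi pathway unhooks crosslinks between DNA strands, through a core complex that attaches ubiquitin to the FANCD2 and FANCI clamp, while mismatch repair corrects errors left by the polymerase and the ATR kinase with its partners slows the cell cycle when forks stall. Most of these genes are known to be transcribed mainly in dividing cells, and in the embryonic cortex dividing progenitors line the ventricle while postmitotic neurons lie outside them.

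Start-site sequences were looked up because most members had fold changes of the same sign. The RefSeq table of build GRCm38.p6 held a window from 250 bases before to 50 bases after a listed start for 28 of the 35 genes. Rad51d, Rad54b, Exo1, Xrcc2, Fancd2, Usp1 and Rbbp8 had no entry. A listed start need not be the outermost start of the gene. The windows of Timeless (chr10:128237816-128238115), Fancc (chr13:63431696-63431995) and Fancm (chr12:65075353-65075652) lie inside the gene. These genes begin at 128232063 (strand +), 63497292 (strand -) and 65074110 (strand +), where no sequence was searched. The letters TTTNNCGC were searched as a loose form of an E2F-type site, with any base allowed at the middle positions N. Matches to this loose form, such as TTTTTCGC in Brip1, are called E2F-type here. Of the 28, 8 held it on either strand (28.6%), namely Bard1, Brca2, Brip1, Chek2, Fancg, Msh6, Rad51c and Topbp1. The share was 5.2% of all 32851 windows and 7.9% of the windows of genes tested in the knock-in experiment. CCAAT was found on either strand in 18 of 28 (64.3%), against 37.4% of all windows and 37.5% of those of tested genes. TTTGAA, the letters of the cell cycle homology region, was in 2 of 28 (7.1%), against 17.9% and 12.1%. Members were counted by gene, over all windows of that gene, and the backgrounds by window. Rad51b, Rad51c and Rad54l have more than 1 window and so more chances of a match. Matches to the 3 motifs can share bases at their ends. The first 4 windows printed here are those of E2F-type matches in genes with an unadjusted p under 0.05 in the knockdown comparison, and the last 3 are those of the genes that were not lower in sorted E16.5 control cells than in E13.5 cortex. Capitals mark matches to any of the 3 motifs. The windows lie at chr11:86201144-86201443 (strand -) for Brip1, chr5:150522371-150522670 (strand +) for Brca2, chr1:71102923-71103222 (strand -) for Bard1, chr5:110839733-110840032 (strand +) for Chek2, chr17:28313280-28313579 (strand +) for Fance, chr7:51862218-51862517 (strand -) for Fancf and chr9:109074075-109074374 (strand -) for Atrip, all in GRCm38.p6.
Brip1: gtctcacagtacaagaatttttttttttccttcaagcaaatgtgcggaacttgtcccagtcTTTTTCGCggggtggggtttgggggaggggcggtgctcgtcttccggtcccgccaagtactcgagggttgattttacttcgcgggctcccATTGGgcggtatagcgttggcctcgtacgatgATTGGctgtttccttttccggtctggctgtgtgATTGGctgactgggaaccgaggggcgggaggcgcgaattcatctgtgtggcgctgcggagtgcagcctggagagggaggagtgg
Brca2: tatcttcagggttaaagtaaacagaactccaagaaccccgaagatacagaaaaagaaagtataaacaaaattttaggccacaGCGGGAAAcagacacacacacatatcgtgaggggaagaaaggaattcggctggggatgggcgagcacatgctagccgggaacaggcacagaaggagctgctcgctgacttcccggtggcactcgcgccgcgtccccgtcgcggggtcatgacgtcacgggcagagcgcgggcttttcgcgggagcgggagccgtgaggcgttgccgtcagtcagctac
Bard1: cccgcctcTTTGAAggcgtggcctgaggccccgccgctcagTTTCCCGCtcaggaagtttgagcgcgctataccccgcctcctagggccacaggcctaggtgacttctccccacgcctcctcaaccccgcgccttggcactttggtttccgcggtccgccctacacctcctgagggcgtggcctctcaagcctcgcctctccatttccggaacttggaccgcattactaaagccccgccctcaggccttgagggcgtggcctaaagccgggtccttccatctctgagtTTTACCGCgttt
Chek2: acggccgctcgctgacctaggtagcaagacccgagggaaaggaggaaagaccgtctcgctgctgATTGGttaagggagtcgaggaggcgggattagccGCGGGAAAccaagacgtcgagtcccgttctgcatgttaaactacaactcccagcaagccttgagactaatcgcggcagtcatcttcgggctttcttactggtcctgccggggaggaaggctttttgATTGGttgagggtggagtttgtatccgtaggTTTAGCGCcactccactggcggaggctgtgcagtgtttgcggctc
Fance: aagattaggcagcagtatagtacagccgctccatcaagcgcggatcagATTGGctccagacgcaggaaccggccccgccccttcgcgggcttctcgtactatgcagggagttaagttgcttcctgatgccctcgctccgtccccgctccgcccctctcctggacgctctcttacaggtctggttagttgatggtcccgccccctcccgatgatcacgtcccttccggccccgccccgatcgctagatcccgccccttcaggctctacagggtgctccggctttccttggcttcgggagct
Fancf: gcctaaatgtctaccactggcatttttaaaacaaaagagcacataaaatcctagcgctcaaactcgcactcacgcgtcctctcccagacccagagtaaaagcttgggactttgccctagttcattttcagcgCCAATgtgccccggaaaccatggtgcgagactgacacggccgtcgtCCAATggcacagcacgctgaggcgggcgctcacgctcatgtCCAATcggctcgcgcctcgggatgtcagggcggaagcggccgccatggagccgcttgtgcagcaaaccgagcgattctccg
Atrip: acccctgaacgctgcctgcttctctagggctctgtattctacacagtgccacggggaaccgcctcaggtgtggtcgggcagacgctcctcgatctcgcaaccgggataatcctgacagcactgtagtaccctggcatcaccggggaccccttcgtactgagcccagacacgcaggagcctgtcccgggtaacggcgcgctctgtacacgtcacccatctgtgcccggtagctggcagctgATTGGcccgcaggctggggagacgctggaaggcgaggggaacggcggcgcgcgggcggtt
Of the first 4, Chek2 and Bard1 had 2 E2F-type matches each and Brip1 and Brca2 had 1 each. Fance, Fancf and Atrip had 0, and so did all windows of 17 other members, Brca1 among them. Timeless, Fancc and Fancm, whose windows lie inside the gene, are also among those 17. Brca1, Blm, Rad51ap1, Rad54l, Fanca, Chek1 and Timeless had an unadjusted p under 0.05 in the knockdown comparison and no E2F-type match. Fancg, Msh6, Rad51c and Topbp1 had a match and a larger p. The printed windows are a choice, and whether matches go with the fold changes was not tested. A match is a description of these letters and was not tested as a site.

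Total counts were 12805874 to 15911118 a library for the knockdown and 35167646 to 47460020 for the knock-in. Members had from 23 counts (Rad51b, shRNA 1) to 18701 (Topbp1, WT 2). Replicates of every group differed by more than sampling noise, with a chi-square per gene of 15.8 in shRNA, 11.7 in control, 24.0 in PlyA-KI and 13.3 in WT, where sampling alone gives about 1. Lockd was at 4.85 and 2.83 CPM (counts scaled to a common library total) in shRNA cells and 8.90 and 7.80 CPM in control cells, and at 0.102 and 0.0569 CPM in PlyA-KI cortex and 22.1 and 24.0 CPM in WT cortex. It fell in PlyA-KI cortex (adjusted p = 2.98e-07) and missed the threshold in shRNA cells (log2 fold change −1.11, SE 0.30, adjusted p = 0.254). Every adjusted p here is Benjamini-Hochberg over all genes tested, from the quasi-likelihood test of edgeR. Cortical markers were present in all 8 libraries: the summed level of 19 neuronal markers was 7984 and 8265 CPM in shRNA, 6689 and 7250 CPM in control, 6592 and 5443 CPM in PlyA-KI and 5331 and 4454 CPM in WT. Of the members, 19 share exon bases with another annotated gene and 8 share over 10% of them (Rad54l, Rad54b, Fanca, Fancc, Fancf, Fanci, Fancl and Atrip). The sources used here do not say whether reads were counted by strand, which leaves the values of those 8 uncertain. Without them the median log2 fold change of the members was −0.39 in the knockdown, −0.13 in the knock-in and −1.44 between sorted control cells and WT cortex, close to the medians over all 35 given with each comparison.

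In cells electroporated with the Lockd shRNA, most recombination, Fanconi and checkpoint genes lay below their level in control cells, and none of these differences passed over all genes. Of the 35 members, 30 had a negative log2 fold change in shRNA cells against control cells (85.7%), where 50.1% of all 13758 genes tested did, and the median was −0.40 against 0.00 for all genes. edgeR called 0 members, as it called 0 genes in all (background 0%). DESeq2 called 0 members and 52 genes in all, with no adjusted p for 17 members, and limma on FPKM called 0 members and 0 genes. At an unadjusted p under 0.05 there were 15 members, all lower, against 7.51% of all genes in either direction and 4.15% lower. The libraries of the 2 groups did not overlap for 28 members, 26 lower in shRNA and 2 higher, against 19.8% and 15% of all genes. The median standard error of a member was 0.20 on the log2 scale, and the median stayed between −0.45 (without shRNA 2) and −0.34 (without shRNA 1) when a library was left out. Without control 1, 8 members had an unadjusted p under 0.05. In bulk samples such as these, fewer cells of a type and less RNA per cell cannot be told apart.

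Among recombination genes, 13 of 15 were lower in shRNA cells, with a median of −0.55, and 8 had an unadjusted p under 0.05. Exo1, an exonuclease that lengthens the trimmed ends, was at 9.55 and 10.6 CPM in shRNA and 15.8 and 17.5 CPM in control, a log2 fold change of −0.71 (SE 0.20). Brca1, whose product directs broken ends to recombination, was at 24.4 and 22.2 CPM in shRNA and 36.0 and 36.1 CPM in control (−0.61, SE 0.17). Its ubiquitin ligase partner Bard1 was at 8.58 and 9.68 CPM in shRNA and 14.4 and 13.9 CPM in control (−0.61, SE 0.21). Neither gene's groups overlapped. Palb2, which bridges BRCA1 and BRCA2, was at 3.96 and 4.71 CPM in shRNA and 6.79 and 6.48 CPM in control (−0.59, SE 0.28). Brca2, a mediator of strand invasion, was at 17.6 and 23.6 CPM in shRNA and 31.0 and 33.2 CPM in control (−0.62, SE 0.19). All 4 genes of this chain were lower in each shRNA library than in each control library, as were 19.8% of all genes. Their adjusted p were 0.254 for Brca1, 0.4 for Bard1, 0.667 for Palb2 and 0.297 for Brca2.

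Further strand invasion genes lay at similar values. Rad51ap1, whose product stimulates strand invasion, was at 11.9 and 9.37 CPM in shRNA and 19.3 and 14.8 CPM in control (−0.67, SE 0.22). Rad54l, a translocase gene, was at 12.9 and 9.93 CPM in shRNA and 17.2 and 16.51 CPM in control (−0.55, SE 0.21). Its relative Rad54b was at 11.3 and 11.8 CPM in shRNA and 15.6 and 18.3 CPM in control (−0.55, SE 0.20). None of these 3 overlapped between groups, all being lower in shRNA, as were 19.8% of all genes. Blm, a helicase that dissolves joined molecules, was at 31.0 and 33.9 CPM in shRNA and 44.3 and 42.2 CPM in control (−0.40, SE 0.16). Rbbp8, which encodes the end-trimming factor CtIP, was at 30.1 and 39.0 CPM in shRNA and 37.9 and 48.6 CPM in control (−0.31, SE 0.19), with groups that overlapped. Its fold change was −0.10 without control 2 and −0.51 without shRNA 2.

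The 5 paralog genes of strand invasion (Rad51b, Rad51c, Rad51d, Xrcc2 and Xrcc3) did not lie together. Rad51c was at 7.61 and 8.80 CPM in shRNA and 10.4 and 11.7 CPM in control (−0.41, SE 0.22). Xrcc2 was at 11.2 and 13.1 CPM in shRNA and 15.8 and 14.9 CPM in control (−0.32, SE 0.20). Rad51b was at 1.72 and 2.89 CPM in shRNA and 2.97 and 3.13 CPM in control (−0.38, SE 0.39). None of these 3 overlapped between groups, all being lower in shRNA, as were 19.8% of all genes. Rad51b lay at −0.06 without shRNA 1 and at −0.81 without shRNA 2. Rad51d was the other way, at 14.7 and 12.4 CPM in shRNA and 11.9 and 9.89 CPM in control (0.33, SE 0.21), with groups that did not overlap. Xrcc3, at 15.4 and 19.9 CPM in shRNA and 15.9 and 18.9 CPM in control, lay at 0.04 (SE 0.20) and changed sign without control 1 (−0.08) or shRNA 2 (−0.17). Rad51d (adjusted p = 0.871) and Xrcc3 (0.999) were the 2 recombination members with a positive fold change.

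Of the 12 Fanconi genes, 11 were lower in shRNA cells (median −0.38). Brip1, a helicase bound by BRCA1, had the lowest fold change of the 35 members, −1.01 (SE 0.27), at 4.25 and 4.15 CPM in shRNA and 7.42 and 9.61 CPM in control, or 4.20 ± 0.0745 CPM in shRNA and 8.52 ± 1.55 CPM in control (SD, n = 2 each). It came from 57 and 66 counts in shRNA and 95 and 138 in control, and its adjusted p was 0.254. Brip1 was called without control 1 (−1.18, adjusted p = 0.0455) and with no filter on low counts (−0.99, adjusted p = 0.0348), settings that also called 133 and 184 genes in all. Fancd2, the ubiquitinated clamp subunit, was at 12.8 and 11.5 CPM in shRNA and 19.1 and 16.2 CPM in control (−0.53, SE 0.20). Its partner Fanci was at 11.2 and 12.3 CPM in shRNA and 16.1 and 15.2 CPM in control (−0.40, SE 0.20). Usp1, which removes that ubiquitin, was at 76.8 and 74.2 CPM in shRNA and 101 and 98.3 CPM in control (−0.39, SE 0.13). All 3 had groups that did not overlap and were lower in shRNA, as were 19.8% of all genes.

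Within the core complex, Fanca was at 19.6 and 17.5 CPM in shRNA and 29.8 and 21.4 CPM in control (−0.44, SE 0.20). Fancc was at 3.81 and 3.71 CPM in shRNA and 5.70 and 5.08 CPM in control (−0.50, SE 0.29). The ubiquitin ligase gene Fancl was at 5.0 and 7.04 CPM in shRNA and 7.65 and 8.08 CPM in control (−0.36, SE 0.26). Fancm, whose product anchors the complex to DNA, was at 37.5 and 47.1 CPM in shRNA and 49.4 and 54.4 CPM in control (−0.28, SE 0.17). These 4 were lower in both shRNA libraries than in both control libraries, as were 19.8% of all genes. Among the other core genes, Fancf, Fancb and Fancg had groups that overlapped. Fancf lay at −0.31 (SE 0.25), at 12.6 and 8.99 CPM in shRNA and 16.2 and 10.9 CPM in control, and its fold change was −0.0034 without control 1 and −0.57 without shRNA 1. Fancb lay at −0.13 (SE 0.26), at 6.49 and 6.79 CPM in shRNA and 6.33 and 8.36 CPM in control. Fancg lay at −0.03 (SE 0.20), at 15.3 and 17.1 CPM in shRNA and 15.1 and 18.4 CPM in control. Fancb and Fancg changed sign without control 2 (0.11 and 0.14), and Fancg also without shRNA 1 (0.05). Fance was the 1 Fanconi gene with a positive fold change, 0.29 (SE 0.20), at 21.1 and 15.7 CPM in shRNA and 15.5 and 15.0 CPM in control (adjusted p = 0.885), and lay at 0.06 without shRNA 1 and 0.49 without shRNA 2.

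The 2 mismatch repair members were nearly level between the groups. Msh6, a mismatch recognition gene, was at 70.0 and 71.7 CPM in shRNA and 76.6 and 73.3 CPM in control (−0.07, SE 0.13). Pms2, an endonuclease gene, was at 20.6 and 22.7 CPM in shRNA and 21.3 and 19.99 CPM in control (0.08, SE 0.17). Both values lay within 1 standard error of 0, and whether the pair differs from the other members was not tested. Of the checkpoint genes 5 of 6 were lower (median −0.38). Timeless, of the fork protection complex, was at 31.7 and 29.2 CPM in shRNA and 47.2 and 41.5 CPM in control (−0.53, SE 0.16). Chek1, the effector kinase of ATR, was at 15.6 and 16.8 CPM in shRNA and 20.3 and 23.8 CPM in control (−0.43, SE 0.18). Chek2, the effector of the related kinase ATM, was at 10.6 and 9.55 CPM in shRNA and 16.6 and 12.8 CPM in control (−0.53, SE 0.21). Both effector kinases were thus lower in each shRNA library than in each control library. The kinase gene Atr itself was at 37.6 and 44.6 CPM in shRNA and 49.3 and 54.6 CPM in control (−0.32, SE 0.16). Its activator Topbp1 was at 97.6 and 104 CPM in shRNA and 129 and 114 CPM in control (−0.26, SE 0.13). For these 5 the groups did not overlap, with shRNA lower, as for 19.8% of all genes. Atrip, the obligate partner of ATR, was at 37.9 and 39.2 CPM in shRNA and 42.8 and 32.3 CPM in control (0.06, SE 0.17). Its shRNA values lay between those of the control libraries.

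**Figure D1:**
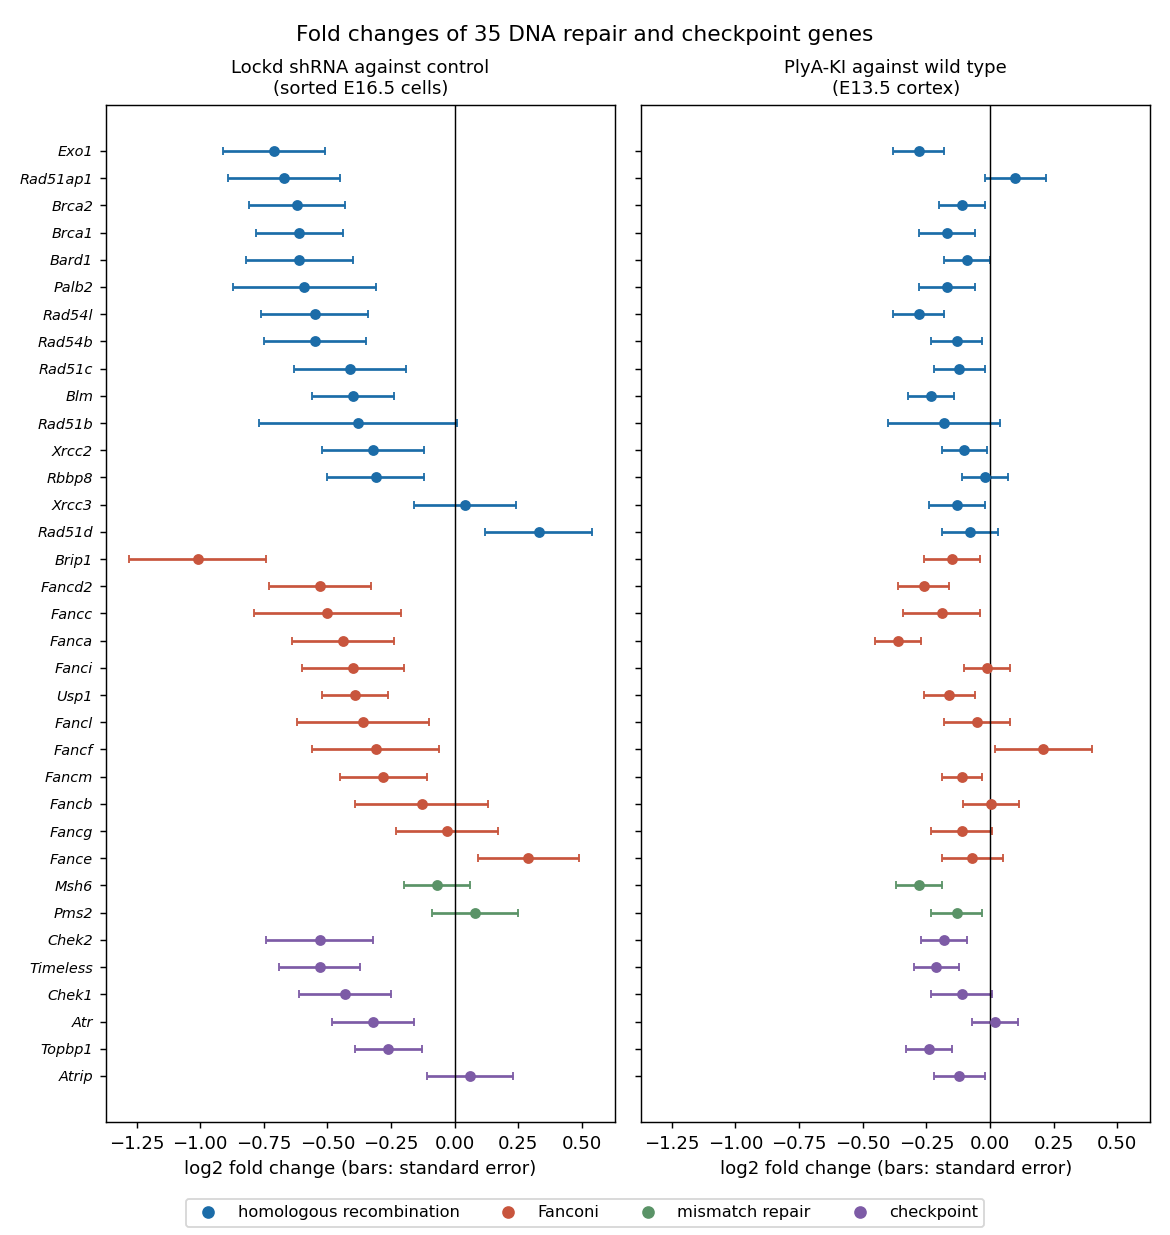
Log2 fold change of each of the 35 members (points, with bars of 1 standard error) for shRNA over control on the left and PlyA-KI over WT on the right, coloured by role and ordered within each role by the knockdown value. In the knockdown 30 of 35 points lie below 0 with a median of −0.40, and in the knock-in 31 of 35 with a median of −0.13.

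Other genes of recombination, the Fanconi pathway and the checkpoint had medians closer to 0 than the members of those roles, a difference between lists that was not tested. Of 58 further recombination, Fanconi and crosslink genes tested, 43 were lower in shRNA cells (median −0.13), 11 had an unadjusted p under 0.05, all lower, and 0 passed. Eme1, a subunit of a nuclease that cuts joined molecules, lay at −1.04 (SE 0.23), and Fignl1 at −0.75 (SE 0.20). Of 18 further checkpoint genes, 17 were lower (median −0.24) and 6 had an unadjusted p under 0.05, with Clspn, the adaptor that brings CHK1 to ATR, at −0.86 (SE 0.18) and Wdhd1 at −0.71 (SE 0.17). Of the further mismatch repair genes, Pms1 lay at −0.79 (SE 0.27), Msh3 at −0.13 (SE 0.16) and Mlh3 at −0.04 (SE 0.20). Of 10 end joining genes 8 were lower (median −0.12) and 0 had an unadjusted p under 0.05, with Xrcc5 at −0.33 (SE 0.16) and Polm at −0.22 (SE 0.18). Of 29 genes of base and nucleotide excision repair 15 were lower (median −0.01) and 2 had an unadjusted p under 0.05, Neil3 at −0.54 (SE 0.18) and Neil1 at 0.49 (SE 0.22). edgeR called 0 genes of any of these lists.

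Markers of the cell cycle and of cell types also lay apart between the groups, although edgeR called 0 of them. The 35 members summed to 760.0 and 795.4 CPM in shRNA and 988.1 and 959.1 CPM in control. All 40 S phase genes were lower in shRNA (median −0.51, 30 at an unadjusted p under 0.05), and their sum was 2194 and 1931 CPM in shRNA and 2857 and 2761 CPM in control. All 40 G2 and M phase genes were lower (median −0.63, 39 at an unadjusted p under 0.05), summing to 2207 and 1908 CPM in shRNA and 3031 and 3427 CPM in control. All 13 markers of intermediate progenitors, the dividing offspring of radial glia, were lower (median −0.42), at 2111 and 1803 CPM in shRNA and 2497 and 2709 CPM in control, and 11 of 14 radial glia markers were lower (median −0.16). Neuronal markers were higher for 16 of 19 (median 0.23), and so were 14 of 16 p53 targets (median 0.39), with Cdkn1a at 0.84 (SE 0.21). The part of these markers in the members' fold changes was not tested. Oligodendrocyte precursor markers summed to 36.3 and 22.1 CPM in shRNA and 48.3 and 52.8 CPM in control, microglia markers to 33.7 and 39.2 CPM in shRNA and 43.7 and 15.3 CPM in control, and mitochondrially encoded genes had a median of 0.00.

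**Figure D2:**
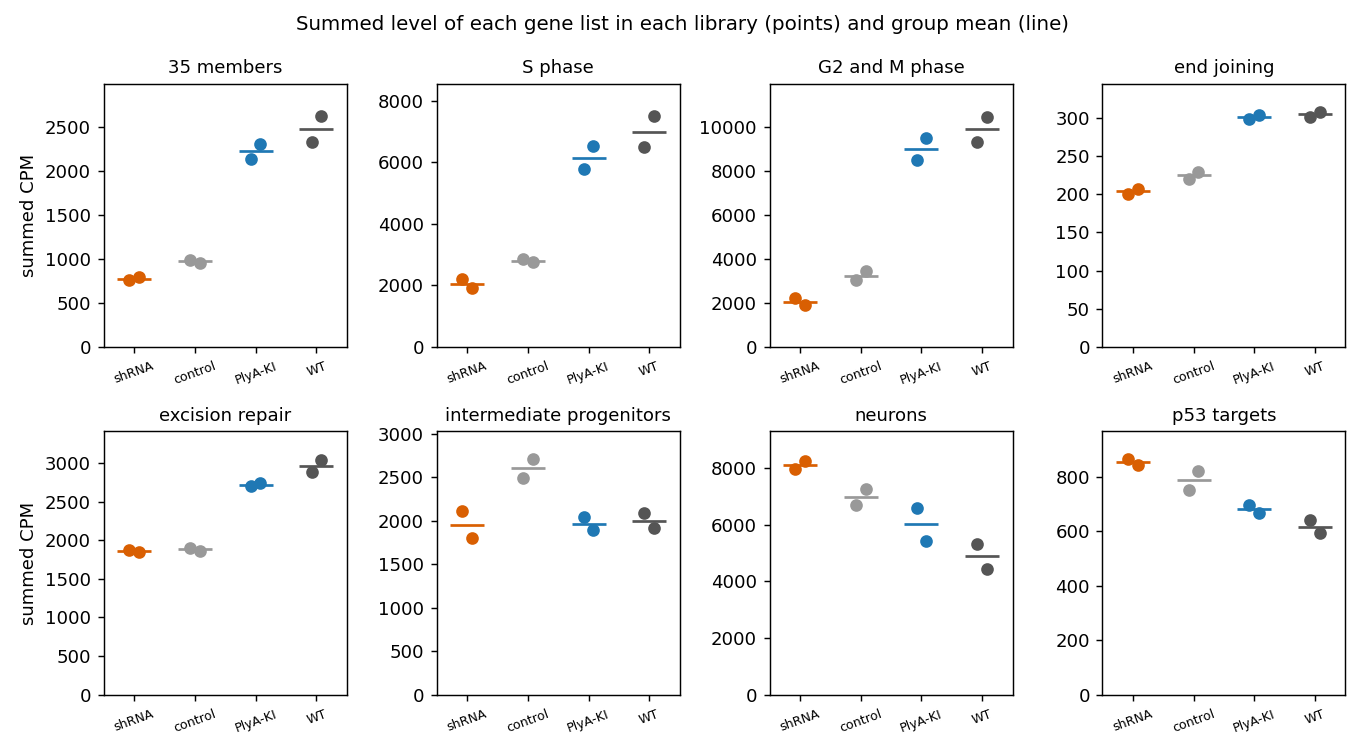
Summed CPM of 8 gene lists in each library (points) with the mean of each group (lines), in shRNA, control, PlyA-KI and WT libraries. The members lie at 760.0 and 795.4 CPM in shRNA, below 988.1 and 959.1 CPM in control, as S phase and G2 and M phase genes do, while excision repair genes lie at 1877 and 1848 CPM in shRNA and 1902 and 1861 CPM in control.

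In PlyA-KI cortex, in which Lockd was nearly absent, most members were also below wild type, by smaller amounts in the median. Of 35 members, 31 had a negative log2 fold change (88.6%), where 48.2% of all 15398 genes tested did, with a median of −0.13 against 0.01 for all genes and a median standard error of 0.10. edgeR called 0 members, against 8 genes in all (background 0.052%), and DESeq2 (117 genes in all) and limma on FPKM (6 in all) also called 0 members. Exo1 and Rad54l were called lower without WT 1, and Exo1 and Msh6 without PlyA-KI 2. At an unadjusted p under 0.05 there were 8 members, all lower, against 12.5% of all genes in either direction and 6.05% lower. The groups did not overlap for 15 members, all lower in PlyA-KI, against 20% of all genes lower and 23.7% higher. The 2 WT libraries bore on this unequally: without WT 1 the median was −0.21 and 11 members had an unadjusted p under 0.05, and without WT 2 the median was −0.05 and 0 did. Without PlyA-KI 1 the median was −0.12 with 1 such member, and without PlyA-KI 2 it was −0.16 with 11.

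The 8 members with an unadjusted p under 0.05 came from every role. Fanca had the lowest fold change, −0.36 (SE 0.09), at 38.0 and 37.5 CPM in PlyA-KI and 45.8 and 50.3 CPM in WT, with an adjusted p of 0.257. In recombination they were Rad54l, Exo1 and Blm. Rad54l was at 58.3 and 63.3 CPM in PlyA-KI and 66.3 and 79.9 CPM in WT (−0.28, SE 0.10). Exo1 was at 61.4 and 68.6 CPM in PlyA-KI and 72.2 and 84.8 CPM in WT (−0.28, SE 0.10). Blm was at 96.0 and 98.3 CPM in PlyA-KI and 105 and 122 CPM in WT (−0.23, SE 0.09). These 3 act in end trimming, strand exchange and the resolution of joined molecules. Fancd2 was at 46.4 and 51.2 CPM in PlyA-KI and 53.8 and 61.8 CPM in WT (−0.26, SE 0.10). Msh6, which was nearly level in the knockdown, was at 158 and 181 CPM in PlyA-KI and 192 and 217 CPM in WT (−0.28, SE 0.09). The checkpoint genes were Topbp1, at 299 and 332 CPM in PlyA-KI and 346 and 394 CPM in WT (−0.24, SE 0.09), and Timeless, at 109 and 110.5 CPM in PlyA-KI and 118 and 134 CPM in WT (−0.21, SE 0.09). In all 8 both PlyA-KI libraries lay below both WT libraries, as for 20% of all genes. The 8 were picked by their p in these same libraries, so this separation is no further support. Their adjusted p ran from 0.257 (Fanca) to 0.365 (Timeless).

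Of the other recombination genes, Brca1 was at 102 and 119.7 CPM in PlyA-KI and 112 and 136 CPM in WT (−0.17, SE 0.11). Brca2 was at 87.3 and 92.1 CPM in PlyA-KI and 91.0 and 101 CPM in WT (−0.11, SE 0.09). Bard1 was at 37.4 and 34.95 CPM in PlyA-KI and 37.5 and 38.9 CPM in WT (−0.09, SE 0.09). Palb2 was at 19.7 and 20.9 CPM in PlyA-KI and 21.1 and 24.1 CPM in WT (−0.17, SE 0.11). In this chain the groups overlapped for Brca1 and Brca2 and not for Bard1 and Palb2. Of the paralogs, Rad51c was at 20.4 and 21.0 CPM in PlyA-KI and 21.7 and 22.8 CPM in WT (−0.12, SE 0.10). Rad51d was at 17.7 and 16.6 CPM in PlyA-KI and 17.5 and 18.5 CPM in WT (−0.08, SE 0.11). Rad51b was at 5.40 and 7.37 CPM in PlyA-KI and 6.05 and 8.28 CPM in WT (−0.18, SE 0.22), the largest standard error of the 5. The groups of Rad51d, Rad51b and Xrcc3 overlapped, and those of Rad51c and Xrcc2 did not. Xrcc2 was at 41.9 and 39.8 CPM in PlyA-KI and 43.4 and 43.7 CPM in WT (−0.10, SE 0.09). Xrcc3 was at 31.9 and 28.3 CPM in PlyA-KI and 30.7 and 34.8 CPM in WT (−0.13, SE 0.11). All 5 fold changes were negative, of Rad51d and Xrcc3 too, and none exceeded 2 standard errors. Rad54b was at 41.3 and 37.3 CPM in PlyA-KI and 40.2 and 45.0 CPM in WT (−0.13, SE 0.10). Rbbp8 was at 76.3 and 82.1 CPM in PlyA-KI and 76.5 and 83.1 CPM in WT (−0.02, SE 0.09). Rad51ap1 was the 1 recombination gene with a positive value, 0.10 (SE 0.12), at 49.0 and 56.5 CPM in PlyA-KI and 43.1 and 54.5 CPM in WT, and it turned negative without WT 1 (−0.06) or PlyA-KI 2 (−0.02).

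Brip1, the member with the lowest fold change in the knockdown, was at 27.5 and 30.1 CPM in PlyA-KI and 29.9 and 33.4 CPM in WT (−0.15, SE 0.11). Usp1 was at 275 and 328 CPM in PlyA-KI and 311 and 356 CPM in WT (−0.16, SE 0.10). Fanci was at 44.7 and 43.2 CPM in PlyA-KI and 41.7 and 46.1 CPM in WT (−0.01, SE 0.09). The groups of all 3 overlapped. The core genes other than Fanca lay between −0.19 for Fancc (10.1 and 10.9 CPM in PlyA-KI, 10.6 and 13.2 CPM in WT) and 0.21 for Fancf (6.75 and 8.28 CPM in PlyA-KI, 7.14 and 5.75 CPM in WT). Fancm lay at −0.11 (SE 0.08), with 59.1 and 60.2 CPM in PlyA-KI and 60.9 and 67.2 CPM in WT. Fancg lay at −0.11 (SE 0.12), with 26.0 and 21.6 CPM in PlyA-KI and 23.8 and 27.1 CPM in WT. Fance lay at −0.07 (SE 0.12), with 12.8 and 13.6 CPM in PlyA-KI and 13.53 and 13.9 CPM in WT. These 3 were lower on average in PlyA-KI, with groups that overlapped for Fancg and Fance. Closest to 0 were Fancl at −0.05 (SE 0.13), with 17.2 and 15.9 CPM in PlyA-KI and 15.2 and 18.8 CPM in WT, and Fancb at 0.005 (SE 0.11), with 18.4 and 16.8 CPM in PlyA-KI and 17.2 and 17.6 CPM in WT. Of the 12 Fanconi genes, Fancf and Fancb had a positive fold change. That of Fancb turned negative in 1 fit of all 8 libraries (−0.01), and that of Fanci positive with limma on FPKM (0.0029). Pms2 was at 34.4 and 35.6 CPM in PlyA-KI and 36.1 and 40.0 CPM in WT (−0.13, SE 0.10). Among checkpoint genes Chek1 was at 66.9 and 82.3 CPM in PlyA-KI and 72.8 and 86.8 CPM in WT (−0.11, SE 0.12). Its groups overlapped, as did those of Atr and Atrip, while those of Chek2 did not. Chek2 was at 35.3 and 33.8 CPM in PlyA-KI and 37.4 and 40.3 CPM in WT (−0.18, SE 0.09). Atr was at 72.0 and 81.3 CPM in PlyA-KI and 74.1 and 76.2 CPM in WT (0.02, SE 0.09). Atrip was at 32.2 and 29.9 CPM in PlyA-KI and 35.1 and 31.9 CPM in WT (−0.12, SE 0.10).

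**Figure D3:**
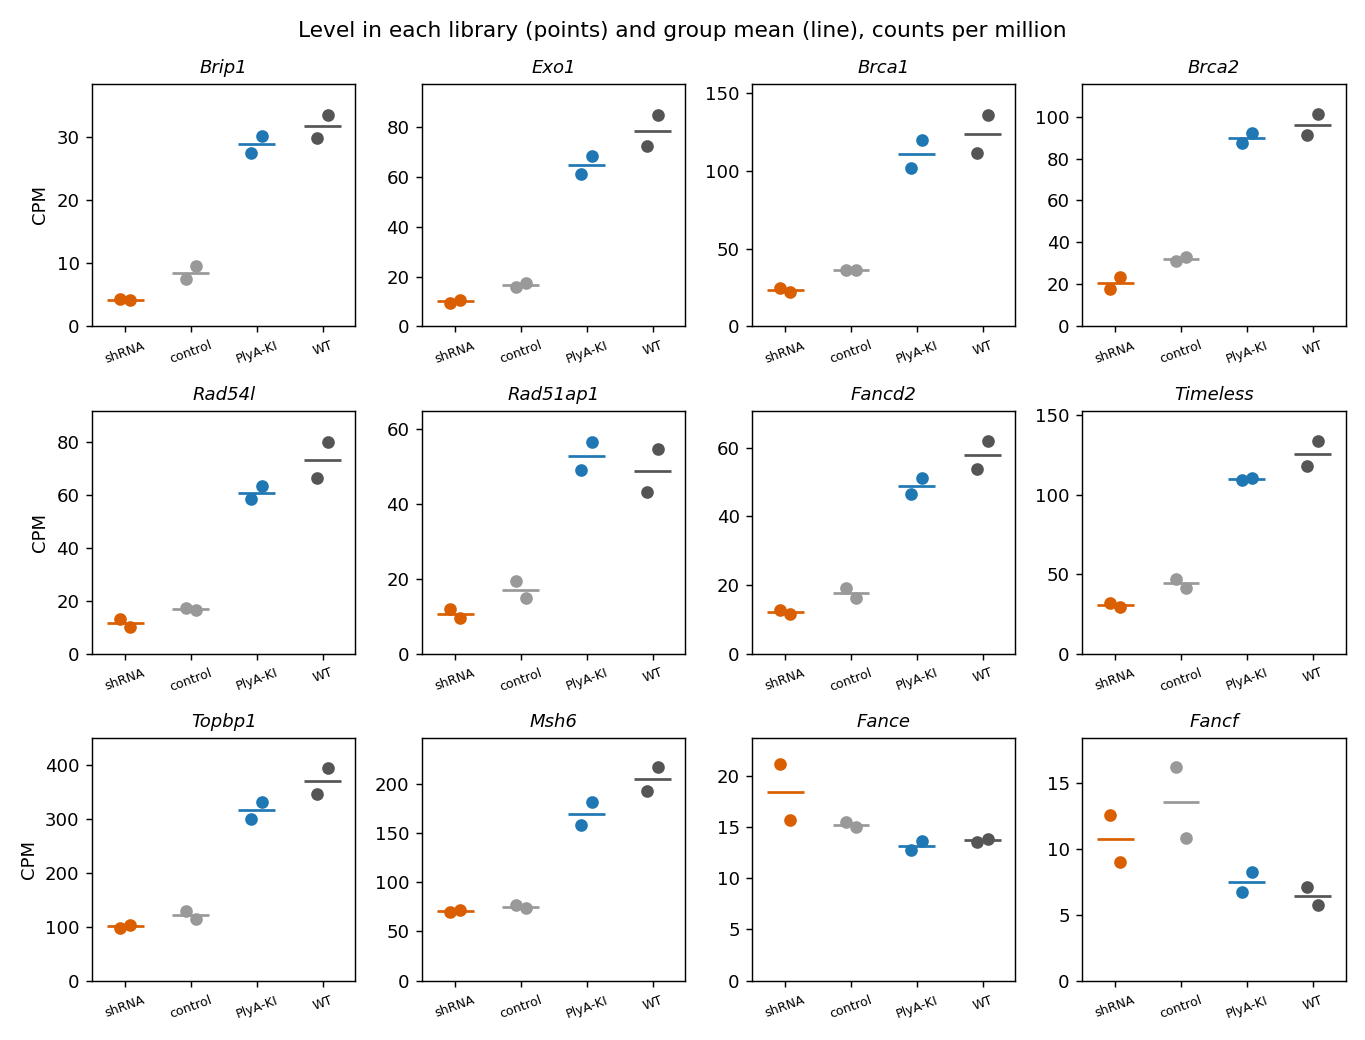
CPM of 12 members in each library (points) with group means (lines), for shRNA, control, PlyA-KI and WT. Brip1 lies at 4.25 and 4.15 CPM in shRNA and 7.42 and 9.61 CPM in control, Msh6 is nearly level between shRNA and control, and Fance and Fancf are the 2 of these genes that are not lower in the control cells than in WT cortex.

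edgeR called 0 of the other pathway genes in PlyA-KI cortex. Of 59 further recombination, Fanconi and crosslink genes 39 were lower (median −0.07), with 10 at an unadjusted p under 0.05, 9 of them lower, among them the helicase gene Recql4 at −0.37 (SE 0.10) and Tonsl at −0.33 (SE 0.09). Of 18 further checkpoint genes 14 were lower (median −0.10) and 7 had an unadjusted p under 0.05, 2 of them higher in PlyA-KI, with Cdc25a at −0.29 (SE 0.08) and Clspn at −0.31 (SE 0.11). Of the further mismatch repair genes, Pms1 lay at −0.15 (SE 0.14), Msh3 at 0.005 (SE 0.08) and Mlh3 at 0.10 (SE 0.11). End joining genes were split, 5 higher and 5 lower (median 0.06), with Poll at 0.35 (SE 0.15) and Paxx at 0.30 (SE 0.16), and 19 of 29 excision repair genes were lower (median −0.07), with Parp1 at −0.27 (SE 0.08) and Ddb1 at −0.19 (SE 0.08). S phase genes were lower for 34 of 40 (median −0.16) and G2 and M phase genes for 37 of 40 (median −0.13), close to the members' −0.13. The S phase sum was 5770 and 6543 CPM in PlyA-KI and 6485 and 7504 CPM in WT, with PlyA-KI 2 above WT 1, so these groups overlapped. The members' sum was 2134 and 2311 CPM in PlyA-KI and 2326 and 2628 CPM in WT. Here PlyA-KI 2 lay just below WT 1, so the groups did not overlap. Radial glia markers were lower for 11 of 14 (median −0.09), summing to 3197 and 3367 CPM in PlyA-KI and 3534 and 3601 CPM in WT, so that these sums did not overlap. Neuronal markers were higher for 18 of 19 (median 0.31), interneuron markers for 8 of 9 (median 0.77, all 10 markers summing to 138 and 109 CPM in PlyA-KI and 111 and 87.0 CPM in WT), erythroid genes for all 8 tested, 1 of which passed (435 and 628 CPM in PlyA-KI, 345 and 383 CPM in WT) and the 9 mitochondrially encoded genes for 9 of 9 (median 0.47). Of 13 intermediate progenitor markers 7 were higher and 6 lower (median 0.02). Of 16 p53 targets tested 11 were higher and 5 lower (median 0.19). The part of all these markers in the members' values was not tested.

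The 2 responses were compared in 1 fit of all 8 libraries, which asked for each gene whether its knockdown and knock-in fold changes differ. The experiments share no library. The difference, knockdown minus knock-in, was negative for 28 of 35 members, where it was for 51.9% of all 15641 genes tested. Its median was −0.28 (−0.17 without WT 1 and −0.37 without WT 2), against −0.02 for all genes. This was not particular to the members: it was negative for 38 of 40 S phase genes (median −0.36) and all 40 G2 and M phase genes (median −0.49). At an unadjusted p under 0.05 there were 12 and 27 genes of these lists, all lower. edgeR called 0 members, against 2 genes in all (background 0.0128%), 1 of which was Lockd. At an unadjusted p under 0.05 there were 5 members, against 7.04% of all genes in either direction and 4.4% lower, all with the lower value in the knockdown. Leaving out a library gave 2 such members without WT 1, 3 without PlyA-KI 2, 9 without control 1 and 10 without shRNA 2. The 5 were Brip1 (−0.86, SE 0.25), Rad51ap1 (−0.77, SE 0.25), Bard1 (−0.52, SE 0.19), Brca2 (−0.51, SE 0.20) and Brca1 (−0.44, SE 0.19). Msh6 (0.22, SE 0.16), Pms2 (0.22, SE 0.18), Rad51d (0.41, SE 0.22), Fance (0.36, SE 0.23), Atrip (0.18, SE 0.20), Xrcc3 (0.17, SE 0.23) and Fancg (0.08, SE 0.23) were the 7 with a positive difference, and none of the 35 passed over all genes (smallest adjusted p 0.593, for Brip1). Both fold changes were negative for 26 members and both positive for 0. Across the 35 members the 2 sets of fold changes correlated weakly (Pearson's r = 0.168, Spearman's rho = 0.288), a description across genes, which are not independent replicates.

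The groups of the 2 experiments that carry neither agent nor allele, sorted E16.5 control cells and E13.5 WT cortex, differed far more than either pair. Strain, age, sorting, electroporation and experiment all differ between them and cannot be told apart. Of 35 members 33 passed, 32 lower in control cells and 1 higher, where 61.6% of all 15111 genes passed, 31.3% lower and 30.3% higher. The median log2 fold change of the members was −1.40, against −0.02 for all genes, and their groups did not overlap for 34 members, 32 lower and 2 higher, against 41.6% of all genes lower and 40.4% higher. DESeq2 and limma on FPKM each called 32. Since the knockdown and this comparison share the control libraries, and the knock-in and this comparison the WT libraries, their values are given side by side and no likeness between them is drawn.

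On a scale per length (FPKM, fragments scaled to gene length and library size), the most abundant members in WT cortex were Usp1, at 28.3 and 27.6 FPKM in control cells and 87.3 and 99.7 FPKM in WT, Topbp1, at 25.3 and 22.2 FPKM in control and 67.7 and 77.1 FPKM in WT, and Msh6, at 18.0 and 17.2 FPKM in control and 45.1 and 50.8 FPKM in WT. The least abundant in WT were Rad51b, at 1.05 and 1.10 FPKM in control and 2.13 and 2.92 FPKM in WT, Rad51d, at 1.69 and 1.40 FPKM in control and 2.48 and 2.62 FPKM in WT, and Fancc, at 1.33 and 1.19 FPKM in control and 2.46 and 3.07 FPKM in WT. The deubiquitinase gene and the checkpoint scaffold gene were thus at the top of the order in both groups, and the paralog genes Rad51b and Rad51d at the bottom in WT did not differ beyond their spread.

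All 15 recombination genes fell in control cells relative to WT cortex (median −1.44). Exo1 fell the most of all members, to 2.87 and 3.17 FPKM in control against 13.1 and 15.4 FPKM in WT (−2.24, SE 0.14), followed by Rad54l, at 5.58 and 5.37 FPKM in control and 21.6 and 26.0 FPKM in WT (−2.12, SE 0.14). Brca1 was at 5.42 and 5.43 FPKM in control and 16.8 and 20.5 FPKM in WT (−1.79, SE 0.12), and Palb2 (−1.78, SE 0.17), Brca2 (−1.59, SE 0.12) and Bard1 (−1.44, SE 0.13) followed. Rad51ap1 lay at −1.53 (SE 0.16), Xrcc2 at −1.51 (SE 0.13), Blm at −1.40 (SE 0.11) and Rad54b at −1.33 (SE 0.14). The paralog genes other than Xrcc2 fell by less, Rad51b at −1.24 (SE 0.27), Rad51c at −1.01 (SE 0.16), Xrcc3 at −0.92 (SE 0.15) and Rad51d at −0.73 (SE 0.17), and Rbbp8 lay at −0.89 (SE 0.13). Adjusted p in this role ran from 8.62e-08 to 0.00243.

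The Fanconi genes were the most spread. Brip1 fell to 1.07 and 1.39 FPKM in control, against 4.30 and 4.82 FPKM in WT (−1.89, SE 0.17), and Usp1 (−1.75, SE 0.11), Fancd2 (−1.72, SE 0.14) and Fanci (−1.49, SE 0.13) fell by similar amounts. The core genes lay above these, with Fancb at −1.24 (SE 0.19), Fancc at −1.15 (SE 0.21), Fancl at −1.12 (SE 0.19), Fanca at −0.92 (SE 0.15), Fancg at −0.61 (SE 0.16) and Fancm at −0.31 (SE 0.11). Fancm passed narrowly (adjusted p = 0.034) and was not called by DESeq2 (adjusted p = 0.0596), by limma on FPKM (0.103), or without control 1 (0.11), WT 1 (0.064) or WT 2 (0.279). Fancg was not called without WT 2 (−0.52, adjusted p = 0.0592). Fance did not pass, at 7.67 and 7.43 FPKM in control and 6.71 and 6.88 FPKM in WT (0.15, SE 0.16, adjusted p = 0.444). Fancf, a gene of a single exon, was the 1 member that rose, to 9.61 and 6.42 FPKM in control against 4.22 and 3.40 FPKM in WT (1.06, SE 0.22, adjusted p = 0.00141). Gas2, which overlaps 15.0% of its exon bases on the other strand, was lower in control, at a log2 fold change of −0.72 (SE 0.15).

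Msh6 fell in control cells (−1.45, SE 0.11), as did Pms2 (−0.89, SE 0.13), and of the checkpoint genes Chek1 (−1.86, SE 0.14), Topbp1 (−1.61, SE 0.11), Timeless (−1.51, SE 0.12), Chek2 (−1.41, SE 0.15) and Atr (−0.54, SE 0.11) fell. Atrip did not pass, at 16.6 and 12.6 FPKM in control and 13.6 and 12.4 FPKM in WT (0.16, SE 0.14, adjusted p = 0.358). Its value rested on control 1: without it the fold change was −0.04, and without control 2 it was 0.35 (adjusted p = 0.0183). Trex1, which shares 16.0% of the exon bases of Atrip on the same strand, lay at 0.31 (SE 0.19).

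**Figure D4:**
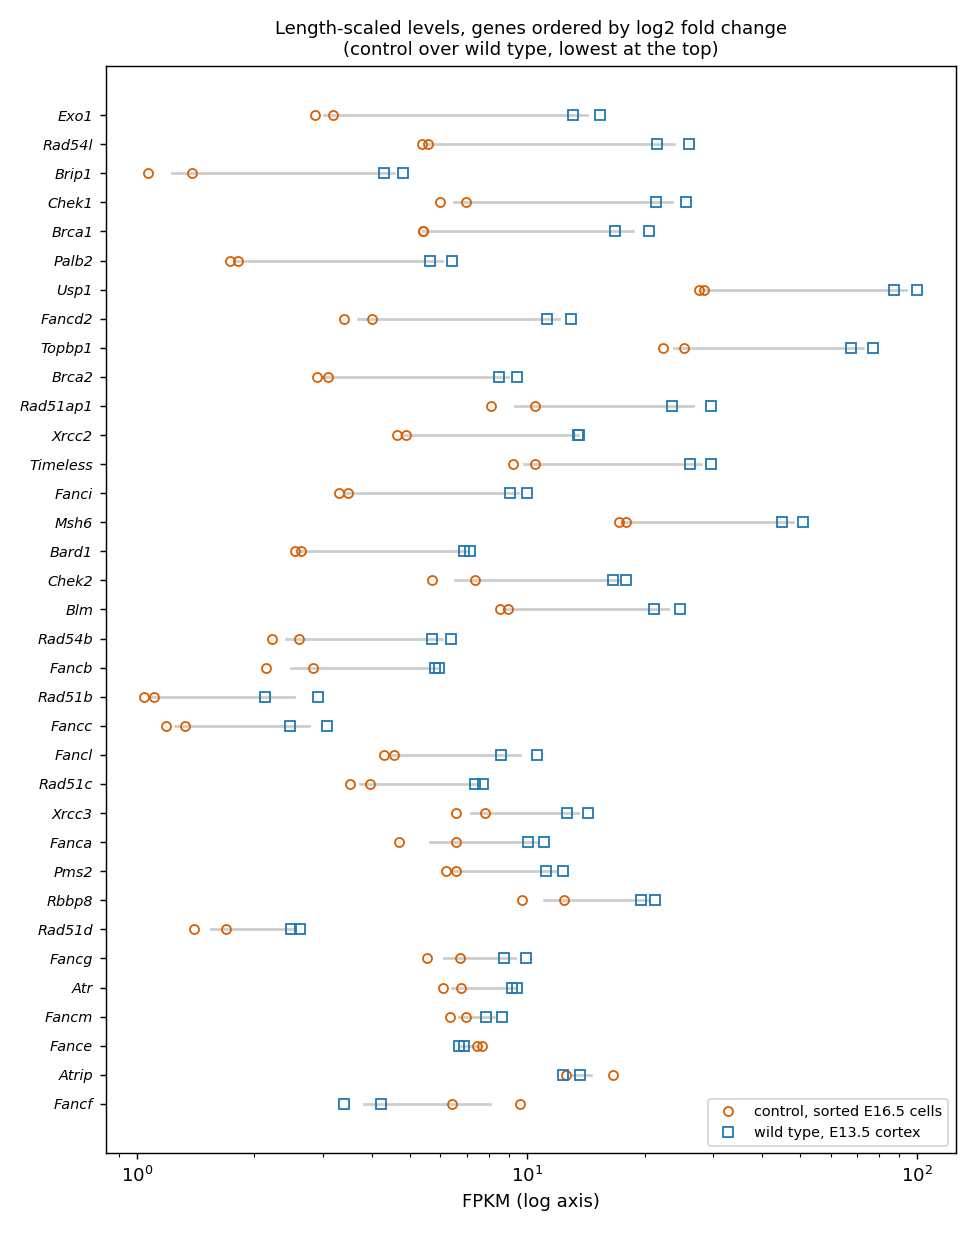
FPKM on a log axis of each member in the 2 control libraries of sorted E16.5 cells (circles) and the 2 WT libraries of E13.5 cortex (squares), with lines between group means, ordered by log2 fold change from Exo1 at the top. Of the 35 members 32 lie lower in control cells, and Fance, Atrip and Fancf at the bottom do not.

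Most other pathway genes were also lower in control cells, by smaller amounts in the median. Of 59 further recombination, Fanconi and crosslink genes, 38 passed lower and 4 higher (median −0.57), with Fignl1 at −2.36 (SE 0.12), Eme1 at −2.01 (SE 0.16), Rad50 at −1.89 (SE 0.15), Rad18 at −1.77 (SE 0.14) and Mdc1 at −1.36 (SE 0.10). Of 18 further checkpoint genes 15 passed, all lower (median −0.90), among them Zranb3 at −1.95 (SE 0.14), Rpa1 at −1.91 (SE 0.11), Clspn at −1.85 (SE 0.12), Wdhd1 at −1.78 (SE 0.13), Rpa2 at −1.52 (SE 0.12) and Tipin, the partner of TIMELESS, at −1.52 (SE 0.12). Of the further mismatch repair genes, Pms1 fell (−1.60, SE 0.19), as did Mlh3 (−0.85, SE 0.15) and Msh3 (−0.66, SE 0.12). End joining genes were mixed, 5 called lower and 2 higher of 10 (median −0.24), with Prkdc at −1.29 (SE 0.12), Lig4 at −1.17 (SE 0.24), Xrcc5 at −0.81 (SE 0.12), Xrcc6 at −0.73 (SE 0.13), Polm at 0.64 (SE 0.16) and Paxx at 2.17 (SE 0.20). Of 29 excision repair genes 17 were called lower and 5 higher (median −0.53), with Tdg at −2.03 (SE 0.11), Ung at −1.15 (SE 0.15), Ddb1 at −0.99 (SE 0.10), Parp1 at −0.96 (SE 0.10), Polb at 0.80 (SE 0.10) and Ercc2 at 1.01 (SE 0.13). S phase genes passed lower for 38 of 40 (median −1.41) and G2 and M phase genes for all 40 (median −1.58). Endothelial and pericyte markers summed to 12.5 and 8.15 CPM in control and 141 and 137 CPM in WT, and erythroid genes to 7.89 and 6.83 CPM in control and 345 and 383 CPM in WT, with 3 and 2 of 8 erythroid genes at 0 in control. Radial glia markers summed to 1459 and 1436 CPM in control and 3534 and 3601 CPM in WT. Of 13 intermediate progenitor markers 5 rose and 4 fell (median 0.09), with sums of 2497 and 2709 CPM in control and 2087 and 1918 CPM in WT. Neuronal markers were mixed, with 9 of 19 called higher and 7 lower (median 0.23). Of 5 oligodendrocyte precursor markers 3 were called higher and 0 lower. Of 16 p53 targets tested 9 rose and 5 fell (median 0.84). Of the 9 mitochondrially encoded genes 6 fell and 1 rose (median −0.67), and they summed to 10373 and 12579.9 CPM in control and 21552 and 19918 CPM in WT. The part of these lists in the members' values was not tested.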

How the data were processed

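Polyadenylated RNA of embryonic cortex was sequenced in 8 libraries. The authors deposited whole-number counts per gene and FPKM values, under Entrez identifiers. Per the submitters' processing notes, the tools were bcl2fastq, Trimmomatic, HISAT2 and featureCounts on mm10, while the sources used here name no versions, no annotation and no strand setting. Names came from the RefSeq table of GRCm38.p6 for 25274 of 27178 identifiers, and the other 1904 stayed in the tests. Counts were fitted with edgeR 4.0.16 in R 4.3.3 (filterByExpr, TMM, quasi-likelihood F-test, two-sided, Benjamini-Hochberg adjustment over all genes tested, threshold 0.05), on the 4 libraries compared, or on all 8 for the difference between the experiments. A standard error is the size of the log2 fold change divided by the square root of F. A gene is called, or passes, at an adjusted p under 0.05. CPM divides a count by its library total. Total counts of 12805874 to 47460020 limit precision through counting error, to which the spread between libraries adds. The procedure was also run on simulated data with known changes. Those changes were larger than the members' medians in the knockdown and the knock-in, so the run does not cover changes of that size.

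All 35 members are named. In the other lists, named genes are those that passed, up to 6 with the smallest p, or otherwise the 2 with the smallest p, with Lockd as the targeted gene. Some genes that this rule would name are not reported here. The members and lists were chosen with earlier results of these data known. Alternatives were DESeq2 size factors, no filter, a filter of 1 CPM in at least 2 libraries, DESeq2 1.42.0, limma 3.58.1 on log2 of FPKM plus 0.1, a single fit of 8 libraries, a block for the replicate number, and leaving out each library.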

Additional observations from a re-analysis of the deposited data

How the results depend on the processing

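The count of members called between sorted control cells and WT cortex was within 1.5 times of 33 in every alternative run, and edgeR called 0 members for the difference between experiments in each. In the knockdown, no filter on low counts called 1 member (Brip1) and 184 genes in all, DESeq2 52 genes, 1 fit of 8 libraries 53 genes and the replicate block 161 genes with 0 members, and leaving out a library called 0 to 1 members and 18 to 133 genes. In the knock-in, no filter called 2 members (Fanca and Msh6) and 484 genes, DESeq2 117 genes, 1 fit of 8 libraries 4 genes, and leaving out a library 0 to 2 members and 48 to 565 genes. For the difference between experiments, no filter called 97 genes in all and leaving out a library 2 to 8. With the replicate number as a block, 10 members (Rad54l, Brca1, Blm, Exo1, Fanca, Fancd2, Usp1, Msh6, Topbp1 and Timeless) and 2193 genes were called in the knock-in. Across genes, the differences between libraries 1 and 2 of both groups correlated at 0.179 in the knockdown (13758 genes) and 0.101 in the knock-in (15398 genes). Each group gives a single such difference, and the labels do not say that a number pairs libraries.

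The sign turned for Fancb in the knock-in in 1 fit of 8 libraries (−0.01), for Fanci in the knock-in with limma on FPKM (0.0029) and for Topbp1 in the difference between experiments with no filter (0.02). Leaving out a library turned signs within these ranges of the log2 fold change. In the knockdown they were −0.17 to 0.21 for Xrcc3, −0.32 to 0.11 for Fancb, −0.17 to 0.14 for Fancg and −0.12 to 0.27 for Atrip. In the knock-in they were −0.43 to 0.06 for Rad51b, −0.06 to 0.28 for Rad51ap1, −0.09 to 0.04 for Rbbp8, −0.05 to 0.06 for Fancb, −0.24 to 0.01 for Fancg, −0.08 to 0.06 for Fanci, −0.20 to 0.11 for Fancl, −0.08 to 0.11 for Atr and −0.28 to 0.04 for Chek1. Between control cells and WT cortex the range was −0.04 to 0.35 for Atrip. For the difference between experiments they were −0.63 to 0.11 for Rad51b, −0.02 to 0.33 for Xrcc3, −0.29 to 0.15 for Fanca, −0.34 to 0.10 for Fancb, −0.08 to 0.24 for Fancg and −0.11 to 0.08 for Topbp1. The cause of these changes was not tested. With 2 libraries in a group, 1 left out leaves a lone library that is assumed to vary like the other group, and the 23 counts of Rad51b in shRNA 1 show how few reads stand behind some values.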

Other observations

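Several of the genes that share exon bases with members had values of their own. Zfp276, on the other strand at the end of Fanca, rose in sorted control cells relative to WT cortex (log2 fold change 1.13, SE 0.14, adjusted p = 1.91e-05, edgeR's quasi-likelihood test), while Fanca fell there, by 0.92. Polg, which overlaps Fanci, lay at 0.32 (SE 0.16) in the same comparison, and Lrrc41, which overlaps Rad54l, at −0.29 (SE 0.11). In the knockdown, Gas2 beside Fancf lay at −0.56 (SE 0.21) and Fsbp, which shares 35.8% of the exon bases of Rad54b on the same strand, at −0.70 (SE 0.45). Both were lower in each shRNA library than in each control library, as were 19.8% of all genes. Neither passed over all genes (adjusted p = 0.508 for Gas2 and 0.871 for Fsbp).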
